A study of Homo sapiens with 4 samples.

Results

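The comparison described here is the response of HK1EBV cells to caffeic acid phenethyl ester (CAPE), read as the difference between the array titled for HK1EBV with CAPE and the array titled for HK1EBV with dimethyl sulfoxide (DMSO). It uses 2 of the 4 arrays of the series, and the other 2, from the line HK1 with the same treatments, are given beside it. RNA was measured on single-colour Affymetrix gene arrays, 1 array for each of the 4 groups. All cells were exposed for 24 h, either to CAPE at 110 µM or to 0.1% DMSO, the solvent control. HK1 is a nasopharyngeal carcinoma line, and HK1EBV is known only from its name as HK1 carrying Epstein-Barr virus. The labels do not say which viral genes it expresses or whether it is 1 clone. Probe sets with exactly 1 gene symbol gave 18323 genes, 1 probe set per gene, the brightest over the arrays. Of these, 15194 had a mean log2 value of at least 0.997, which is where the dimmest 25% of probe sets end, and the other 3129 were left out. No group had a replicate, so every difference is a value without a test. In bulk RNA, fewer cells of a type and less RNA per cell cannot be told apart.

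CAPE is a phenolic ester found in propolis, known as an electrophile that reacts with thiols and as an inhibitor of NF-κB. Electrophiles free the transcription factor NRF2 from KEAP1, and NRF2 then drives glutathione, thioredoxin and iron storage genes. Misfolded protein in the endoplasmic reticulum, lack of amino acids and other stresses lead to phosphorylation of eIF2α, which lowers translation in general and raises that of ATF4. ATF4 and its partner CHOP (DDIT3) drive genes of amino acid supply and of feedback on the stress, a programme called the integrated stress response. The unfolded protein response adds chaperones and degradation factors through ATF6 and XBP1.

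With CAPE, 105 genes were at least 2-fold higher in HK1EBV, which is 0.691% of the genes kept, and 81 were at least 2-fold lower, which is 0.533%. At 1.5-fold these were 593 genes higher, 3.9%, and 552 lower, 3.63%. The largest positive differences were, in order, those of DDIT3, NUPR1, NMRAL2P, HERPUD1, AKR1C3, AKR1C1 and KDELR3. The lowest values were those of ALDH1A3, which makes retinoic acid, CYP1B1, a target of the aryl hydrocarbon receptor, H1-1, MMP12 and PADI3. The median difference over all genes was -0.003 and its SD across genes 0.332, and 65.8% of genes differed by less than 1.2-fold. Of the genes at least 2-fold apart, 44 of the 105 and 37 of the 81 were in at least 1 of 50 functional lists, whose members made up 6.74% of all genes kept. The lists were chosen with earlier results of these data known, so this overlap is partly built in and is no evidence of enrichment. Some genes are in several lists, so the counts below overlap.

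**Figure D1:**
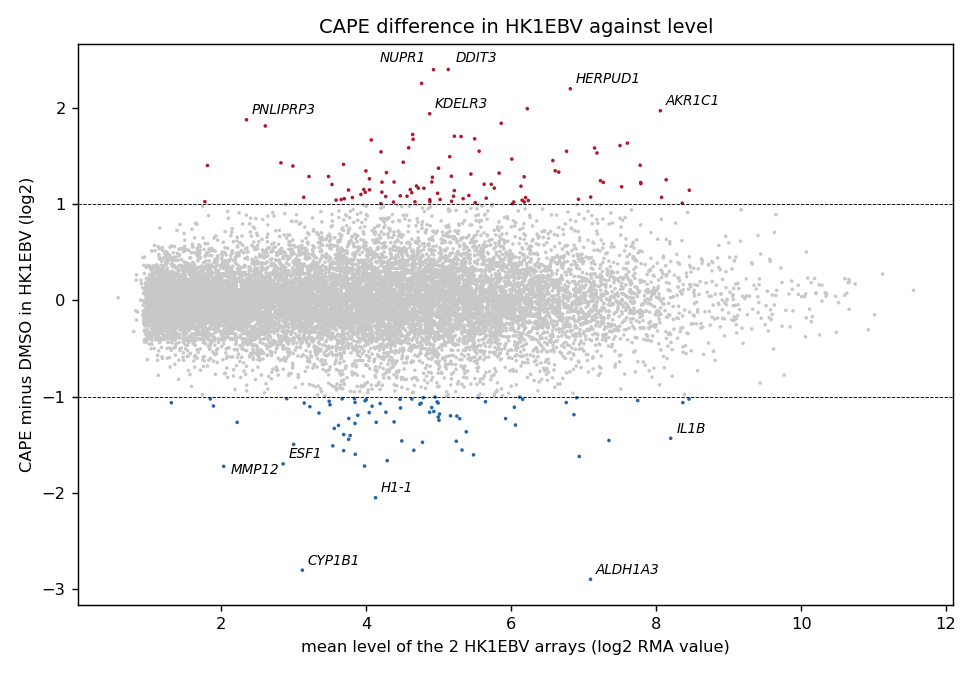
CAPE minus DMSO in HK1EBV (log2) against the mean level of both HK1EBV arrays (log2 RMA value), 1 point per gene for 15194 genes, with the 105 genes at least 2-fold higher in red, the 81 at least 2-fold lower in blue and dashed lines at 2-fold. The largest differences are those of DDIT3 and NUPR1 at 2.40 and of ALDH1A3 at -2.90, and the points are narrower at the dim end.

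The spread of the differences varied with level. In the dimmest of 4 equal bins of level its SD was 0.22, in the brightest 0.38, and 0.158% against 1.92% of genes were at least 2-fold apart. The bins between had 0.632% and 2.19%. The shares of all genes given beside the lists below pool these bins, so a list of brighter genes can exceed them by level alone. Because no array was repeated, the closest measure of precision is how far different probe sets of a gene differ. Among 208 genes with several probe sets, the pooled SD of the difference was 0.235 and the gap between probe sets exceeded 0.71 in 5% of genes. That measure does not include the spread between cultures, and nothing in the labels says whether the arrays came from separate cultures. Of the genes at least 2-fold apart, 2 had a second probe set. AKR1C1 was higher by 1.97 on the brighter probe set and by 0.45 on the other, and UHRF1 differed by -1.003 and -0.64.

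The 8 nasopharyngeal epithelial markers kept ranged from 2.91 to 10.25 with DMSO and from 2.43 to 10.03 with CAPE, and 4 of them were lower with CAPE. The basal keratins KRT5 and KRT14 stood at 10.25 and 9.98 with DMSO and at 10.03 and 9.71 with CAPE, and EPCAM and CDH1 were between 7.85 and 8.27 on both arrays. KRT19 was the dimmest, at 2.91 and 2.43, and SOX2 went from 6.10 to 4.54. Of the 12 markers in the list, 4 had no probe set with a single symbol, among them TP63, KRT6A and KRT17. Of 10 leukocyte markers, PTPRC, CD3E, MS4A1 and LYZ were below the level filter, between 0.489 and 0.996 on both arrays. Of 9 fibroblast markers 4 were below it, and those kept reached at most 3.64, and of 7 endothelial markers 3 were below it and the rest reached at most 2.94. The leukocyte list has 1 member that stood apart, CD68, a lysosomal membrane protein also made outside macrophages, at 7.88 with DMSO and 9.03 with CAPE. In HK1 it was higher by 1.23 with CAPE.

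The regulators of the integrated stress response were the list with the highest median difference, 0.79 over 23 genes against -0.003 for all genes. Of the 23, 15 were at least 1.5-fold higher and 0 lower, against 3.9% and 3.63% of all genes, and 8 were at least 2-fold higher. The same 23 genes had a median of 0.45 in HK1, with 9 at least 1.5-fold higher. DDIT3, which encodes CHOP, went from 3.93 with DMSO to 6.33 with CAPE in HK1EBV and from 4.03 to 5.43 in HK1. NUPR1, a small stress-induced chromatin protein, went from 3.73 to 6.12 in HK1EBV and from 4.21 to 5.37 in HK1. For both genes the DMSO levels of the lines differed by less than 0.5, and the higher level with CAPE was that of HK1EBV.

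CHAC1, which degrades glutathione, went from 4.36 to 6.07 in HK1EBV and from 5.64 to 6.36 in HK1, so HK1 began higher and the levels with CAPE were closer. DDIT4, an inhibitor of the kinase mTOR complex, was higher by 1.40, and KLHL24, an adaptor of a ubiquitin ligase, by 1.59. The secreted factor GDF15 was higher by 1.33 and TRIB3, a pseudokinase that restrains ATF4, by 1.02. INHBE, a subunit of activin E, was near the bottom of the scale with DMSO, at 1.11, and at 2.51 with CAPE, while in HK1 it stood at 1.21 and 1.16. Not every member was higher, as ATF5 differed by -0.39, VLDLR by -0.29 and FGF21 by 0.26. ATF4 itself was higher by 0.79 on its brighter probe set, from 6.95 to 7.75, and by 0.03 on the other, which stood at 4.81 and 4.84. The median of the list is 0.71 when the other probe set of ATF4 is read.

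ATF4 binds a composite element whose core is written here as TGATGNAA, searched on both strands from 250 bases before to 50 after each RefSeq gene start. Among 11878 genes kept that have such a promoter window, 2.004% hold the core. It was found in 6 of 92 genes at least 2-fold higher, 6.52%, in 2 of 62 at least 2-fold lower, 3.23%, and in 3 of 20 members of the stress response list. Among the 25 genes with the largest positive difference, 3 of 21 with a window hold it, namely CHAC1, HERPUD1 and ASNS, and AARS1 is a further one of the 6. The 6 also include GPX8 and MAGED1, and the 2 lower genes are KLK6 and NRIP1. As examples, and without a test of any link between genes, the matches of CHAC1, HERPUD1, ASNS and AARS1 are shown. They are printed 5′ to 3′ along the gene, with the core or its reverse complement in capitals, from RefSeq on GRCh38.p14. A match is a string of letters in a window, and binding was not measured.
CHAC1, chr15:40953237-40953294, plus strand: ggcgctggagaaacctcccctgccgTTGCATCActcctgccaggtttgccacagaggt
HERPUD1, chr16:56931941-56931998, plus strand: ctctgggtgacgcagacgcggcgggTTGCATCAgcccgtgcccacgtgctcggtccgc
ASNS, chr7:97872444-97872501, minus strand: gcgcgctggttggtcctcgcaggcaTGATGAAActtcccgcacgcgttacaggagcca
AARS1, chr16:70289661-70289718, minus strand: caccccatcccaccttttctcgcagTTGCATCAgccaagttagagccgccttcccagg

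Among 13 enzymes of amino acid and one-carbon synthesis, 9 were above 0 and 4 below in HK1EBV. ASNS, asparagine synthetase, went from 6.36 to 7.94 with CAPE in HK1EBV and from 7.34 to 7.57 in HK1, where it was higher at the start. PHGDH and PSAT1, which make serine, were higher by 1.23 and 0.91 in HK1EBV, against 0.56 and -0.20 in HK1. CTH, the last enzyme from methionine to cysteine, was higher by 1.26 against 0.66. Of the 13, 4 were at least 1.5-fold higher and 1 lower, MTHFD1 at -0.72, where 3.9% and 3.63% of all genes were. Their median was 0.24 in HK1EBV and -0.05 in HK1. Outside the lists, and picked after their values were seen, PCK2, mitochondrial phosphoenolpyruvate carboxykinase, was higher by 1.44 and ASS1, argininosuccinate synthase, by 1.35, against 0.49 and 0.54 in HK1.

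The cytosolic aminoacyl-tRNA synthetases, which load amino acids onto tRNA, had a median of 0.36 over 19 genes in HK1EBV and of -0.09 in HK1. Of them 14 were above 0 in HK1EBV, 5 were 1.5-fold or more higher and 2 lower by as much, against 3.9% and 3.63% of all genes. AARS1, for alanine, was higher by 1.01, WARS1 by 0.80, SARS1 by 0.76, GARS1 by 0.67 and CARS1 by 0.62. In HK1 the same 5 genes differed by 0.70, 0.25, 0.37, 0.07 and 0.26. The list was split, as VARS1 was lower by a difference of -0.83 and FARSB by -0.67, and these were -0.76 and -0.52 in HK1. Of 15 amino acid transporters 11 were above 0 and 4 below, and 4 were at least 1.5-fold higher, against 3.9% of all genes: SLC1A4 by 1.23, SLC6A9 by 0.77, SLC7A11 by 0.69 and SLC1A5 by 0.63. SLC7A5, the large neutral amino acid transporter, differed by -0.44 and its partner SLC3A2 by 0.07. The value of SLC1A5 is that of the brighter of 2 probe sets, and the other gave 0.19.

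All 29 measured genes of the endoplasmic reticulum chaperone and unfolded protein response list lay above 0 in HK1EBV, with a median of 0.49 and a range from 0.06 to 2.20. Of them 10 reached 1.5-fold and 2 reached 2-fold, against 3.9% and 0.691% of all genes, and the median in HK1 was 0.41. HERPUD1, which helps to take proteins out of the endoplasmic reticulum for degradation, went from 5.72 to 7.91 in HK1EBV and from 6.07 to 7.12 in HK1. DNAJB9, a co-chaperone of BiP, went from 2.29 to 3.68 in HK1EBV and was higher by 0.82 in HK1. The degradation factors SYVN1, SEL1L and EDEM1 were higher by 0.95, 0.88 and 0.86, and the transcription factor XBP1 by 0.92. By contrast the differences were small for SDF2L1, at 0.09, MANF, at 0.18, PDIA6, at 0.23, and CRELD2, at 0.25.

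The endoplasmic reticulum stress element that ATF6 binds together with NF-Y was searched as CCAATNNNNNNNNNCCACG on both strands. It was present in 14 of the 11878 promoter windows, 0.118%, of which 7 belonged to the 27 list members with a window, 25.9%. None of the 92 genes at least 2-fold higher held these letters in the window, and none of the 62 lower ones did. Within the list the median difference in HK1EBV was 0.43 with the element and 0.51 without it. The matches of XBP1 and ERO1B are printed because these genes were among the higher ones of the list, by 0.92 and 0.98. That of HSPA5, which encodes BiP, is printed because it is the best known. The other list members with the element were HSP90B1 at 0.43, CANX at 0.39, CALR at 0.34 and CRELD2 at 0.25. Capitals mark the element or its reverse complement.
XBP1, chr22:28800578-28800646, minus strand: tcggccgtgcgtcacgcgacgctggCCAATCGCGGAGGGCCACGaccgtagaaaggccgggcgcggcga
HSPA5, chr9:125241366-125241434, minus strand: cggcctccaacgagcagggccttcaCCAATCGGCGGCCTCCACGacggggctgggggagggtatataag
ERO1B, chr1:236282158-236282208, minus strand: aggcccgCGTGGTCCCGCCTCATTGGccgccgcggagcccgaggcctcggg

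A set of further genes of the secretory route was at least 2-fold higher. It is in no list, and its members were picked for such values after these were seen. Genes of this route that differed less were not counted, so the set does not describe the route as a whole. KDELR3, a receptor that returns escaped chaperones to the endoplasmic reticulum, went from 3.90 to 5.84 in HK1EBV and from 2.75 to 3.72 in HK1. The COPII coat subunits SEC24D and SEC24A were higher by 1.17 and 1.06, against 0.62 and 0.18 in HK1. YIF1A and YIPF2, membrane proteins of the early Golgi, were higher by 1.23 and 1.19. The tethering subunit COG6 was higher by 1.14 and the golgin GOLGA5 by 1.04, against 0.24 and 0.48 in HK1. HSPA13, a chaperone of the microsomal lumen, was higher by 1.37, DNAJC1, which binds BiP, by 1.02, and GFPT1, the first enzyme of hexosamine synthesis, by 1.22.

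**Figure D2:**
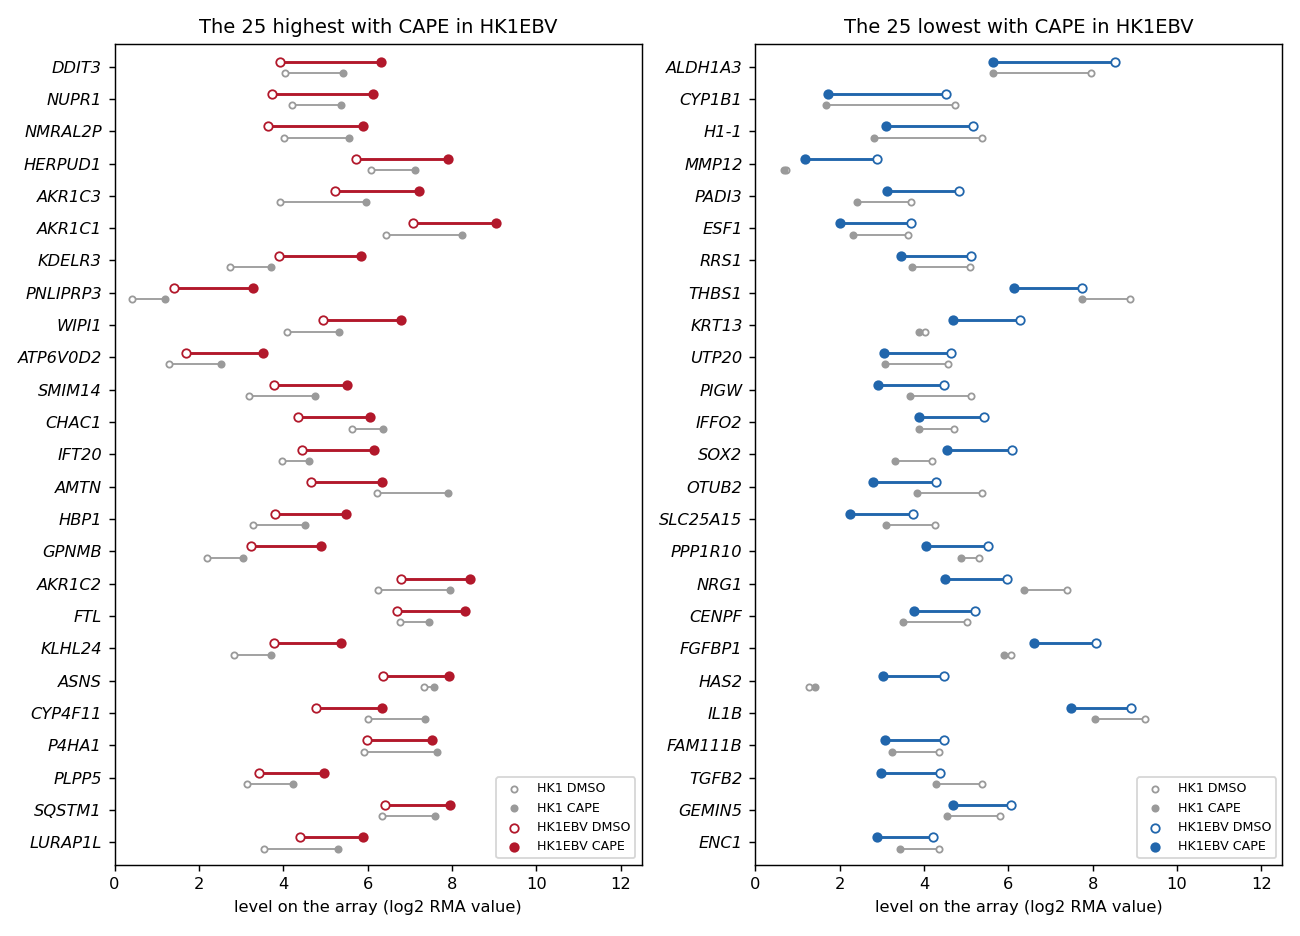
Levels (log2 RMA value) of the 25 genes with the largest positive and the 25 with the largest negative CAPE difference in HK1EBV. Open symbols are DMSO and filled symbols CAPE, in colour for HK1EBV and in grey for HK1, 1 array each. DDIT3 goes from 3.93 to 6.33 in HK1EBV, CYP1B1 and ALDH1A3 have long lines in both cell lines, and MMP12, KRT13 and HAS2 have short grey lines.

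The NRF2 targets and thiol genes had a median of 0.36 over 33 genes in HK1EBV and of 0.40 in HK1. In HK1EBV 15 were at least 1.5-fold higher and 0 lower, against 3.9% and 3.63% of all genes, and 7 reached 2-fold, against 0.691%. AKR1C1, AKR1C2 and AKR1C3, aldo-keto reductases that act on carbonyls and steroids, had the largest differences of the list in both lines. AKR1C3 went from 5.23 to 7.22 in HK1EBV and from 3.93 to 5.97 in HK1, and AKR1C2 was higher by 1.63 and 1.69. AKR1C1, AKR1C2 and AKR1C3 are near-identical in sequence, so their probe sets may share signal and the 3 values are not independent. NMRAL2P, a pseudogene known as a target of NRF2, went from 3.63 to 5.89 in HK1EBV and from 4.01 to 5.56 in HK1.

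Further down, GCLC and GCLM, the subunits of the enzyme that starts glutathione synthesis, were higher by 1.02 and 0.62, and TXNRD1, thioredoxin reductase, by 0.80. FTL, the light chain of the iron store ferritin, went from 6.70 to 8.30 in HK1EBV and from 6.77 to 7.46 in HK1. MAFG, a partner of NRF2, was higher by 1.02 against 0.49 in HK1. The range ended with NFE2L2, which encodes NRF2 itself, at -0.30, and ABCC2 at -0.44, while HMOX1 differed by 0.31 and NQO1 by 0.30. AKR1B10 differed by -0.02 in HK1EBV and by 1.05 in HK1. Outside the list, and chosen after their values were seen, the glutathione peroxidases GPX2 and GPX8 were higher by 1.24 and 1.05, and TFRC, the transferrin receptor, by 1.21.

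The core of the antioxidant response element, searched as TGACNNNGCA, was found in 3.14% of all promoter windows. It occurred in 6 of 92 genes at least 2-fold higher, 6.52%, in 1 of 62 at least 2-fold lower and in 2 of 26 list members. Printed are the windows of GPX2, which is at least 2-fold higher and outside the list, and of GCLM, a list member below 2-fold. Both act in glutathione use or synthesis, and the match on the other strand is in capitals.
GPX2, chr14:64942834-64942893, minus strand: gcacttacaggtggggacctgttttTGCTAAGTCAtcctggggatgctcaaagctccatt
GCLM, chr1:93909431-93909490, minus strand: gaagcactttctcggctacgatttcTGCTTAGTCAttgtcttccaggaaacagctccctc

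Of 33 genes of autophagy and the lysosome, 30 lay above 0 in HK1EBV and 8 were at least 1.5-fold higher, where 3.9% of all genes were, with a median of 0.32 against 0.42 in HK1. WIPI1, which binds the membrane of the forming autophagosome, went from 4.94 to 6.78 in HK1EBV and from 4.10 to 5.32 in HK1. SQSTM1, a cargo receptor that is also a target of NRF2, went from 6.42 to 7.95 in HK1EBV and from 6.35 to 7.59 in HK1. NEU1, a lysosomal sialidase, was higher by 1.21, GABARAPL1, of the ATG8 family, by 1.06, and the starting kinase ULK1 by 0.89. At the low end ATG16L1 differed by -0.48 and ATG3 by -0.36. The lysosomal or melanosomal genes ATP6V0D2 and GPNMB, chosen by their place among the 25 highest, were higher by 1.81 and 1.67, ATP6V0D2 from a low level of 1.70.

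Metallothioneins bind zinc and copper, and their close sequence likeness makes single members uncertain. MT1F was higher by 1.18 and MT1X by 1.07, MT1E by 0.48, MT1G by 0.45 and MT2A by 0.27, from a level of 10.99. The zinc exporter SLC30A1 was higher by 0.98 in HK1EBV and by 0.19 in HK1, and the importer SLC39A10 was lower, at -1.07 and -2.02. The whole list of 17 had a median of 0.27 in HK1EBV and of 0.20 in HK1.

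Hypoxia targets and glycolytic genes were higher as well, but with smaller values than in HK1. Their median over 33 genes was 0.26 in HK1EBV and 0.61 in HK1, 27 of the 33 differences were smaller in HK1EBV, and 1 gene against 11 was at least 2-fold higher, where all genes gave 0.691% and 0.671%. BNIP3, a mitophagy receptor, was higher by 1.253 in HK1EBV and 1.996 in HK1. NDRG1 went from 7.82 to 8.46 in HK1EBV, while its difference in HK1 was 3.36. VEGFA was higher by 0.77 against 0.42, and ENO1 and PKM differed by -0.18 and -0.17. The collagen prolyl hydroxylases P4HA1 and P4HA2 were higher by 1.55 and 1.09 in HK1EBV, and P4HB, their shared subunit and a disulfide isomerase, by 0.89. LOXL2 differed by 0.07 and PLOD2 by 0.27, against 1.35 and 1.02 in HK1.

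**Figure D3:**
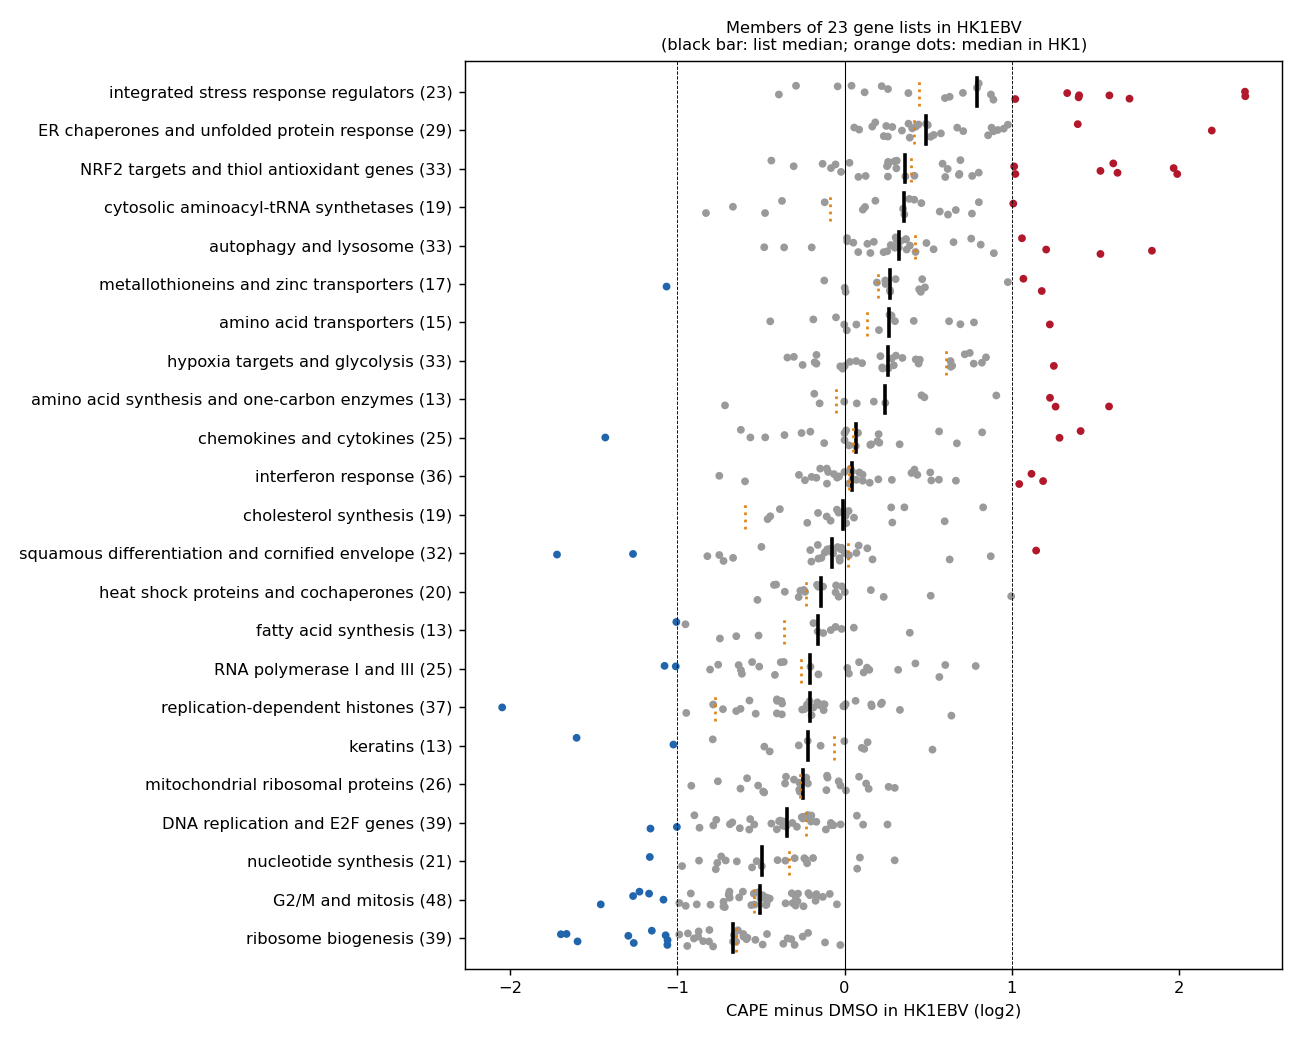
CAPE minus DMSO in HK1EBV (log2) for the kept members of 23 of the 50 lists, 1 point per gene, with the number of genes in brackets, the list median as a black bar and the HK1 median as orange dots. Red and blue points are at least 2-fold higher or lower. The stress response regulators have the highest median at 0.79 and ribosome biogenesis the lowest at -0.67, and the HK1 median lies well to the left for cholesterol synthesis and histones and to the right for hypoxia targets.

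The NF-κB list of subunits and inhibitors had a median of 0.14 over 20 genes. TNFAIP3, a deubiquitinase that ends NF-κB signalling, went from 3.32 to 4.67 in HK1EBV, and NFKB2, of the alternative pathway, from 4.13 to 5.30. In HK1 they were higher by 1.06 and 1.08. CYLD was higher by 0.89 and the inhibitor NFKBIA by 0.54, NFKB1 and RELA differed by -0.05 and 0.27, and MAP3K14 was lower, at -0.66. Among chemokines, which attract leukocytes, CCL20 went from 2.98 to 4.39 in HK1EBV and from 4.58 to 4.65 in HK1. CXCL8 was higher by 1.29 in HK1EBV and 1.12 in HK1, and CXCL1 by 0.82 against -0.38. IL1B, the main pyrogenic cytokine, was lower, from 8.92 to 7.48 in HK1EBV and from 9.23 to 8.06 in HK1. The list of cytokines thus held members far on both sides, with a median of 0.07 over 25.

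A list of 19 host genes known to be induced by the viral latent membrane protein 1 had a median of 0.17 in HK1EBV and of 0.14 in HK1. The 4 members at least 2-fold higher in HK1EBV, against 0.691% of all genes, were CCL20, TNFAIP3, CXCL8 and NFKB2, which are in the NF-κB or cytokine lists too. In HK1 5 members of this list were at least 2-fold higher, against 0.671% of all genes, so such values were not particular to HK1EBV. CD40 differed by -0.38, EGFR by -0.09 and TRAF1 by 0.47. Among 36 interferon response genes the median was 0.05. IRF9, a subunit of the interferon-stimulated factor, was higher by 1.19, OAS1 by 1.12 and IFI44L by 1.05, and IFIT2 and SAMD9 differed by -0.60 and -0.75. IRF9 was higher by 0.27 and OAS1 by 0.71 in HK1, and IFI44L differed by -0.16 there. So 3 of 36 were at least 2-fold higher in HK1EBV, where 0.691% of all genes were, and 0 in HK1, where 0.671% were, and the median was near that of all genes in both.

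On the lower side, ALDH1A3 and CYP1B1 had the lowest differences of all genes kept, followed by H1-1 at -2.05. ALDH1A3, a retinaldehyde dehydrogenase, went from 8.54 to 5.65 in HK1EBV and from 7.95 to 5.64 in HK1. CYP1B1 went from 4.52 to 1.72 and from 4.74 to 1.67, so both lines ended at nearly the same low level. The other genes of each pathway differed less in HK1EBV. CYP1A1 was lower, at -1.02 from a level of 2.36, and ALDH3A1 at -0.74, but AHR differed by 0.05, TIPARP by -0.19 and ARNT by 0.50. The 14 retinoid genes had a median of -0.13, with DHRS3, a retinaldehyde reductase induced by retinoic acid, at -0.35 and CYP26A1 at -0.33.

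Ribosome biogenesis was the list with the lowest median. All 39 measured genes lay below 0 in HK1EBV, with a median of -0.67 against -0.65 in HK1. Of them 27 were at least 1.5-fold lower and 9 at least 2-fold lower, where 3.63% and 0.533% of all genes were, and in HK1 25 and 5 were, against 3.79% and 0.684% there. ESF1, a nucleolar factor of pre-rRNA processing, went from 3.701 to 2.003 in HK1EBV and from 3.62 to 2.31 in HK1. RRS1, which helps to place the 5S RNA, went from 5.12 to 3.46, and UTP20, of the small subunit processome, from 4.65 to 3.05. DKC1, the pseudouridine synthase of box H/ACA particles, differed by -1.29, BOP1 by -1.26 and NOP16 by -1.15. At the other end NOP10 differed by -0.03, RRP12 by -0.12 and NPM1, nucleophosmin, by -0.25.

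Subunits of RNA polymerases I and III lay on both sides of 0. POLR1B and POLR1E, of polymerase I, were lower, at -1.08 and -1.01, POLR1A at -0.80 and the initiation factor UBTF at -0.61. Of polymerase III, POLR3B was lower at -0.76 and POLR3G at -0.63, while POLR3D was higher by 0.60 and POLR3A by 0.42. MAF1, the repressor of polymerase III, was higher by 0.78 in HK1EBV and by 0.46 in HK1. The list of 25 had 7 genes at least 1.5-fold lower and 2 higher, against 3.63% and 3.9% of all genes. The mitochondrial ribosomal proteins had a median of -0.25 over 26 genes, with MRPL1 at -0.92 and MRPL17 at 0.30. Genes of splicing and RNA binding outside the lists, noticed after their values were seen, were SRSF1 at -1.06, SRSF2 at -1.11, HNRNPD at -1.04, SNRPD1 at -1.18, DHX9 at -1.004, GEMIN4 at -1.03 and GEMIN5 at -1.36. Apart from SNRPD1, at -0.38, they differed by -0.72 to -1.26 in HK1. They were picked for being at least 2-fold lower, and genes of splicing that differed less were not counted.

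MYC and its relatives bind the palindrome CACGTG, which 9.67% of all promoter windows hold. It was found in 17 of 62 genes at least 2-fold lower, 27.4%, in 10 of 92 at least 2-fold higher, 10.9%, and in 15 of 33 members of the ribosome biogenesis list, 45.5%. Within that list the median difference in HK1EBV was -0.66 with the palindrome and -0.72 without it. MYC itself differed by -0.42 in HK1EBV and by -0.53 in HK1, and a link to the motif was not tested. The matches in UTP20 and UTP4, of the same processome, lie next to the start, and that of OTUB2 is shown as one outside the list, in a deubiquitinase that differed by -1.51 and -1.54 in the lines. Capitals mark the palindrome.
UTP20, chr12:101280070-101280104, plus strand: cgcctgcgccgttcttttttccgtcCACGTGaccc
UTP4, chr16:69132608-69132648, plus strand: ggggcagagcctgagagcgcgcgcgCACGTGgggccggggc
OTUB2, chr14:94026241-94026296, plus strand: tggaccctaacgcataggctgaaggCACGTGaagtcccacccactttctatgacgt

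All 48 measured genes of G2/M and mitosis lay below 0 in HK1EBV, with a median of -0.50 against -0.54 in HK1. Of these 19 were at least 1.5-fold lower and 5 at least 2-fold, against 3.63% and 0.533% of all genes. In HK1 they were 22 and 10, against 3.79% and 0.684%. CENPF, a kinetochore protein, went from 5.22 to 3.76 in HK1EBV and from 5.02 to 3.51 in HK1. KIF20A, a motor of cytokinesis, went from 6.54 to 5.31, a difference of -1.23, against -2.17 in HK1. ASPM differed by -1.27, KIF20B by -1.17, HMMR by -1.08 and CCNB1, cyclin B1, by -0.99. CDK1, its kinase, differed by -0.17, AURKB by -0.22 and PTTG1 by -0.05, so the members were alike in sign and uneven in size.

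The cell cycle homology region, bound by the DREAM and MuvB complexes, was searched as TTTGAA or TTTAAA. These short strings occur in 16.1% of all promoter windows. They were in 35 of 41 G2/M genes with a window, 85.4%, in 14 of 62 genes at least 2-fold lower, 22.6%, and in 17 of 92 at least 2-fold higher, 18.5%. Windows of 3 members are printed, HMMR because its 2 matches adjoin, with the matches in capitals.
KIF20A, chr5:138179046-138179101, plus strand: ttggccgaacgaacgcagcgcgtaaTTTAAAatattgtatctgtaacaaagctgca
HMMR, chr5:163460579-163460631, plus strand: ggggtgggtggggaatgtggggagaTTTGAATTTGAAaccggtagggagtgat
CCNB1, chr5:69167095-69167149, plus strand: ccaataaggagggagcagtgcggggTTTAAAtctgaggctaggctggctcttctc

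In all, 8 motifs were searched. The xenobiotic response core, GCGTG, was in 47.5% of all windows, in 43.5% of those of genes at least 2-fold higher and in 62.9% of the lower ones. The cyclic AMP element, TGACGTCA, was in 2.96%, 6.52% and 1.61%, and a metal response core in 37.1%, 32.6% and 40.3%.

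**Figure D4:**
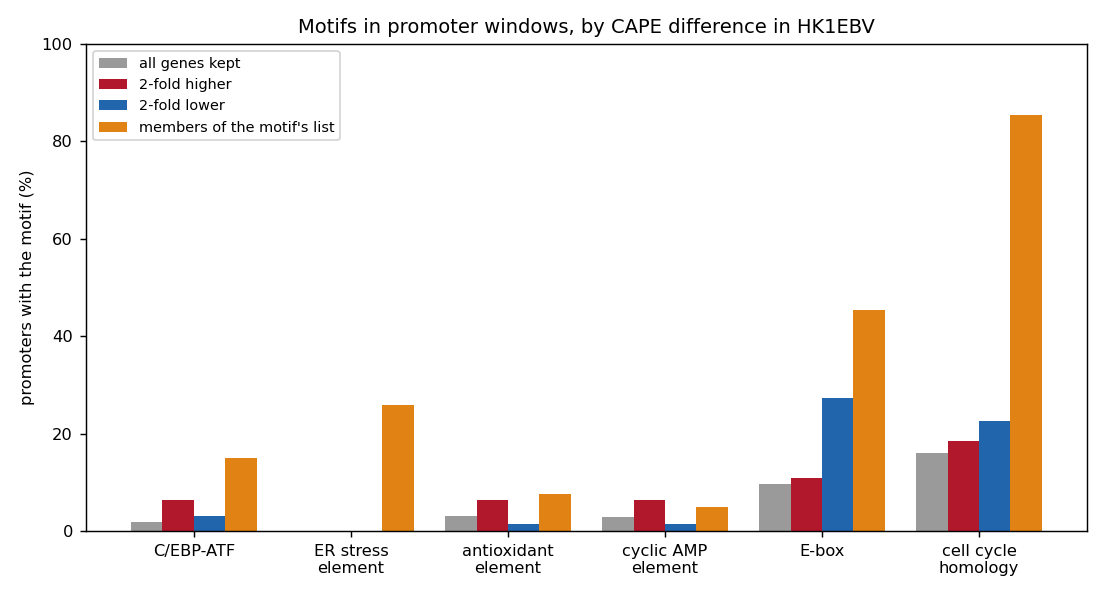
Share of promoter windows (%) that hold each of 6 of the 8 motifs searched, without the xenobiotic and metal elements, for all 11878 genes kept with a window, for the 92 genes higher and the 62 lower by 2-fold or more in HK1EBV, and for the members of the list that goes with the motif, which for the cyclic AMP element is the stress response list. The tallest bar is the cell cycle homology region in G2/M genes at 85.4%, and the E-box stands at 27.4% of the lower genes against 9.67% of all.

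Replication genes were lower in HK1EBV, with a median of -0.35 over 39 genes and 36 of them below 0, and of -0.23 in HK1. The helicase subunits MCM6, MCM3, MCM2 and MCM5 differed by -1.16, -0.87, -0.79 and -0.77 in HK1EBV, against -0.89, -0.40, -0.40 and -0.33 in HK1. CDC6, which loads that helicase, differed by 0.11 and E2F8 by 0.26. In nucleotide synthesis the median was -0.50 over 21 genes, against -0.33. PFAS, of purine synthesis, went from 4.62 to 3.46 in HK1EBV, and CTPS1, which makes CTP, was lower at -0.97, against -0.56 and -0.40 in HK1. RRM1 and TK1 differed by 0.09 and 0.08. Among regulators of the cycle CDKN2B was higher by 0.88, CDKN1A by 0.64 and CCNG2 by 0.77, and CCND1, cyclin D1, was lower at -0.73. Their list of 20 had 7 genes above 0 and 13 below, with a median of -0.07 in HK1EBV and of -0.10 in HK1. Of the 20, 3 were at least 1.5-fold higher and 3 lower in HK1EBV, against 3.9% and 3.63% of all genes.

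Replication-dependent histones had a median of -0.21 over 37 genes in HK1EBV and of -0.78 in HK1. H1-1 was the lowest, from 5.15 to 3.10 in HK1EBV and from 5.38 to 2.80 in HK1. In HK1EBV 6 of the 37 were at least 1.5-fold lower, where 3.63% of all genes were, and in HK1 25, where 3.79% were, and the difference was less negative in HK1EBV for 35 of them. Histone genes are near-identical within a class, so probe sets may share signal.

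Growth factor and matrix genes supplied several of the lowest values. NRG1, a ligand of ERBB3, went from 5.97 to 4.51, and EREG, epiregulin, from 7.46 to 6.27, while HBEGF was higher by 0.66. THBS1, thrombospondin, went from 7.75 to 6.13 in HK1EBV and from 8.88 to 7.74 in HK1, and TGFB2 from 4.38 to 2.99. IRS1, which links the insulin receptor to its kinases, differed by -1.30 in HK1EBV and -0.39 in HK1. The phosphatases DUSP10 and DUSP1, which switch off MAP kinases, were higher by 1.31 and 1.08, and DUSP4 was lower at -0.87. Their list of 16 phosphatases and feedback genes had 7 above 0 and 9 below in HK1EBV. Its median was -0.11 in HK1EBV and 0.37 in HK1. Of the 16, 3 were at least 1.5-fold higher and 2 lower in HK1EBV, against 3.9% and 3.63% of all genes.

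Among epithelial genes, KRT13, a keratin of non-cornified stratified epithelium, went from 6.28 to 4.68 in HK1EBV and from 4.01 to 3.88 in HK1. KRT15, of basal cells, differed by -1.02 and KRT8 by -0.79, against -0.49 and -0.09 in HK1, and KRT16 was higher by 0.53. SOX2, a transcription factor of the squamous lineage, went from 6.10 to 4.54 in HK1EBV and from 4.20 to 3.32 in HK1. PADI3, which converts arginine to citrulline in keratinised tissue, went from 4.84 to 3.11, and KLK6, a secreted protease, from 2.85 to 1.58. The protease inhibitor SLPI was higher by 1.15. In the list of 32 squamous differentiation genes 3 were at least 1.5-fold higher and 6 lower, against 3.9% and 3.63% of all genes, with a median of -0.08.

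Other lists had medians within 0.2 of that of all genes in HK1EBV. The medians were -0.10 for 28 proteasome subunits, -0.15 for 26 subunits of oxidative phosphorylation, -0.14 for heat shock proteins, 0.01 for p53 targets, 0.02 for apoptosis regulators and -0.03 for Hippo targets. Of 24 p53 targets 4 were at least 1.5-fold higher and 2 lower, and of 32 apoptosis regulators 2 and 2, against 3.9% and 3.63% of all genes. The proteasome and oxidative phosphorylation lists had 0 in either direction. Among these DNAJB4 was higher by 0.997 and PLK2 lower at -1.03. Cholesterol synthesis had a median of -0.01 over 19 genes in HK1EBV and of -0.59 in HK1. INSIG1, the sterol-regulated anchor, was higher by 0.83 in HK1EBV and lower at -1.75 in HK1, and HMGCS1 differed by -0.46 and -2.36. Fatty acid synthase, FASN, was lower in both, at -1.01 and -1.94, and SCD differed by -0.16 and -1.63.

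Beside HK1, where 102 genes were at least 2-fold higher, 0.671%, and 104 lower, 0.684%, the response of HK1EBV mostly had the same sign among its own 2-fold genes. At 1.5-fold HK1 had 513 genes higher, 3.38%, and 576 lower, 3.79%. Of the 105 genes higher in HK1EBV, 41 were at least 2-fold higher in HK1 too, 29 were 1.5-fold to 2-fold higher, 30 less than that and 5 had the opposite sign or 0. Of the 81 lower genes these numbers were 31, 29, 16 and 5. The size was larger in HK1EBV for 84 of the 105 and 69 of the 81, but these genes were chosen by their HK1EBV values, so the count gives no independent evidence. The genes closest in both lines included AMTN at 1.68 and 1.67, DUSP10 at 1.31 and 1.32, NRIP1 at -1.20 and -1.19, CPEB2 at 1.29 and 1.30, UTP15 at -1.06 and -1.10 and CENPF at -1.46 and -1.51.

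The genes furthest above their HK1 difference were SELENOM at 1.12 against -0.43, INHBE at 1.40 against -0.05, and ASNS and CCL20, described above. They were followed by YPEL3 at 1.33 against 0.06, and by NUPR1, IFI44L, HERPUD1, SLC17A5, PNLIPRP3, SPTY2D1 and IFT20. SELENOM, a selenoprotein of the endoplasmic reticulum, went from 3.42 to 4.55 in HK1EBV and from 3.19 to 2.77 in HK1. PNLIPRP3, a lipase-related gene, went from 1.41 to 3.28 in HK1EBV and from 0.42 to 1.19 in HK1. Its HK1 level with DMSO was below the level filter, so its HK1 difference is uncertain. In this group NUPR1, INHBE and ASNS are genes of the stress response and amino acid lists, and HERPUD1 is of the endoplasmic reticulum list.

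The genes furthest below their HK1 difference were in several cases dim in HK1 on both arrays. MMP12, macrophage elastase, went from 2.89 to 1.17 in HK1EBV and stood at 0.73 and 0.69, below the level filter, in HK1. HAS2, a hyaluronan synthase, went from 4.48 to 3.03, and stood at 1.28 and 1.41 in HK1. CNTN1, a neuronal adhesion protein, went from 4.18 to 3.15, and stood at 0.67 and 0.86, below the level filter, in HK1. MMP12 and CNTN1 thus passed the filter only through their HK1EBV arrays, and a fall in HK1 could hardly have been seen. FGFBP1, which carries fibroblast growth factors, went from 8.08 to 6.62 in HK1EBV and from 6.07 to 5.90 in HK1, and HAS3 from 5.03 to 3.91 and from 4.19 to 4.08. CEL, a bile salt lipase, went from 3.41 to 2.39, and stood at 1.43 and 1.42 in HK1. So for MMP12, HAS2, CNTN1, FGFBP1, CEL and KRT13 the HK1 array with DMSO was already below the HK1EBV array with CAPE. PPP1R10, a nuclear phosphatase subunit, differed by -1.47 against -0.43 from like levels of 5.51 and 5.31. TMEM45A is in this group because it was higher by 1.28 in HK1EBV and by 2.47 in HK1.

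**Figure D5:**
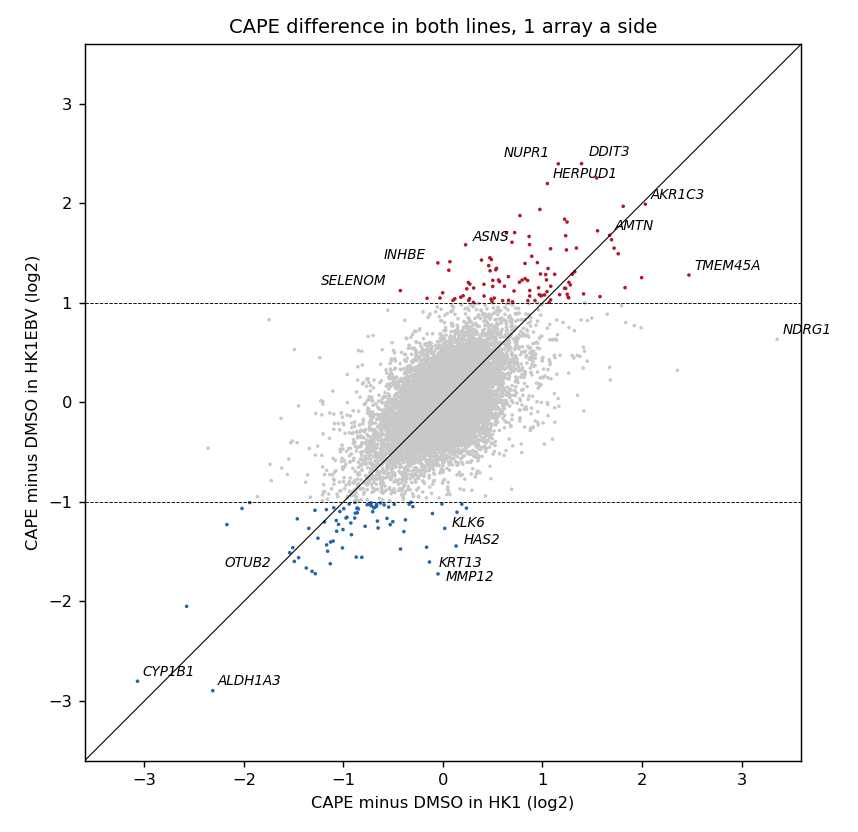
CAPE minus DMSO (log2) in HK1EBV on the vertical axis and in HK1 on the horizontal axis for 15194 genes, 1 array a side in each line, with the line of equal differences. Red and blue points are the 105 and 81 genes at least 2-fold apart in HK1EBV. ASNS and INHBE lie near 0 in HK1, MMP12, HAS2 and KRT13 likewise on the lower side, and NDRG1 lies far to the right at 3.36 in HK1 and 0.63 in HK1EBV.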

How the data were processed

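Total RNA was labelled from 250 ng per array, per the labels' protocols. The deposited values were made by the authors with RMA, per the submitters' processing notes, and were read as log2 values. The RMA version, log base and any shift of scale were not given in the sources used here. All 4 columns were matched to samples by their labels. Of 25800 probe sets 18612 had 1 symbol, and 18583 of these were matched to RefSeq genes of GRCh38.p14. The difference is CAPE minus DMSO, computed with pandas 2.3.3 in Python 3.11.15, and fold is 2 to the power of its size. With 1 array a group, precision is limited by their number and no p-value is given. Gene lists, members and promoter motifs were chosen with earlier results of these data known. Named were the 25 highest and 25 lowest genes, list members at least 1.5-fold apart or among the 5 largest of a list or for context, and the 12 genes each way that differed most, and the 8 that differed least, from HK1. Outside these rules, further genes at least 2-fold apart and in no list were picked by hand after their values were seen. RefSeq promoter windows were found for 11878 of 15194 genes. Scripts were tested on simulated data. Alternatives were other filters, scalings, probe set rules and fold thresholds.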

Additional observations from a re-analysis of the deposited data

Results flagged for a closer look

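Some results had opposite signs in HK1EBV and HK1. That contrast was not tested, as each value rests on 1 array a side. Among genes at least 2-fold lower in HK1EBV, HAS2 differed by -1.44 against 0.13 in HK1, KLK6 by -1.27 against 0.02, PTGR3 by -1.10 against 0.14, CSPG4P5 by -1.06 against 0.24 and CNTN1 by -1.02 against 0.19. CNTN1 stood at 0.67 and 0.86 in HK1, below the filter of 0.997, so the sign of its HK1 difference says nothing. CSPG4P5 stood at 0.78 with CAPE in HK1EBV, also below the filter. Among those at least 2-fold higher, IFI44L differed by 1.05 against -0.16, SPTY2D1 by 1.05 against -0.03, SLC17A5 by 1.10 against -0.002, SELENOM by 1.12 against -0.43 and INHBE by 1.40 against -0.05. The HK1 differences of HAS2, KLK6, PTGR3, IFI44L, SPTY2D1, SLC17A5 and INHBE were smaller in size than 0.235, the pooled SD between probe sets. For these genes HK1 is better read as near 0 than as opposite in sign. Of the lists with a median of at least 0.2 in size, the enzymes of amino acid and one-carbon synthesis had 0.24 against -0.05 and the aminoacyl-tRNA synthetases 0.36 against -0.09.

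Probe sets outside the comparison also held large differences. Of 3102 with no gene symbol and a level past the filter, 17 were at least 2-fold higher and 15 lower with CAPE in HK1EBV. Of 816 with several symbols, 4 were higher and 3 lower.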

How the results depend on the processing

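The count of genes at least 2-fold higher was between 101 and 113, and that of genes lower between 75 and 82, under 7 other settings. These were no filter, a filter at the 50th percentile or on both HK1EBV arrays, quantile normalization, a shift of the arrays to the same median, and for genes with several probe sets their mean or the lowest-numbered. The fold threshold moved them: at 1.5-fold they were 593 and 552, and at 3-fold 19 and 10. Under these 7 none of 283 named genes and none of the lists with a median of at least 0.2 in size changed sign. The 283 are genes at least 1.5-fold apart, without those picked by hand, and 267 of them passed the filter at the 50th percentile. A change of filter leaves most single genes as they were, and the probe set rules touch only genes with several probe sets. For most genes a change of sign was therefore hardly possible, and its absence shows little. Of the 283 genes 5 moved by more than the pooled SD between probe sets, all through the choice of probe set. AKR1C1 gave 1.21 with the mean of its probe sets and 0.45 with the lowest-numbered one, and ATF4 0.41 and 0.03. With the mean BIRC5 gave -0.37 and TIMP3 -0.29, and with the lowest-numbered probe set SLC1A5 gave 0.19. Among list medians, that of the stress response regulators was 0.71 with either probe set rule, and that of the keratins -0.30 after quantile normalization. With the filter at the 50th percentile it was 0.42 for NRF2 targets, 0.35 for amino acid enzymes, 0.38 for collagen hydroxylases, -0.26 for RNA polymerases, 0.21 for cytokines, 0.28 for genes induced by the viral membrane protein, -0.20 for retinoid genes, 0.11 for the interferon response and -0.15 for Hippo targets. Without a filter it was 0.14 for amino acid transporters and 0.005 for cytokines, and the transporters had 0.21 with the lowest-numbered probe set.

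No paired analysis was possible because each group has 1 array. For the same reason no array was left out, and the spread between cultures is unknown. CSPG4P5, INHBE and MMP12 stood near the bottom of the scale on 1 HK1EBV array each, where signal over background limits what a difference shows.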

Other observations

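A few genes among the 25 with the largest differences belong to no list described above. HBP1, a repressor of cell cycle genes, was higher by 1.67 in HK1EBV and 1.23 in HK1, and CYP4F11, a fatty acid hydroxylase, by 1.55 and 1.34. SMIM14, a small membrane protein of the endoplasmic reticulum, was higher by 1.72 and 1.55. IFT20, of the intraflagellar and Golgi transport machinery, was higher by 1.70 and 0.64. On the lower side, SLC25A15, a mitochondrial ornithine carrier, differed by -1.49 and -1.16, and PIGW, of glycosylphosphatidylinositol anchor synthesis, by -1.56 and -1.45. The others of the 25 highest were PLPP5, a lipid phosphatase, at 1.54 in HK1EBV and 1.08 in HK1, and LURAP1L at 1.49 and 1.76. Among the 25 lowest were IFFO2 at -1.56 and -0.81, FAM111B at -1.40 and -1.13, and ENC1 at -1.33 and -0.92.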
